A study of Mus musculus with 26 samples.

Results

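The regions described here are 2636 peaks of open chromatin that, in D1 medium spiny neurons (MSNs), were called both after chronic cocaine with a long withdrawal (CS) and in cocaine relapse (CC), and in none of the other 6 groups of the study. They are the D1 CS peaks on chromosomes 1 to 19 and X that share at least 1 bp with a D1 CC peak and touch no peak of the D1 lists of baseline (SS) and acute cocaine (SC) or of any of the 4 D2 lists. They were thus chosen by the deposited peak calls, that is, by their presence or absence in the 8 lists. They were taken from 48443 D1 CS peaks, of which they are 5.44%, and from 45321 D1 CS peaks found in D1 CC, of which they are 5.82%. Counted from the D1 CC side, 2459 of 77070 peaks, or 3.19%, meet the same rule. Open chromatin was profiled by ATAC-seq in nuclei of D1 and D2 MSNs from mouse brain, in the nucleus accumbens by the title of the series. Of the 26 libraries, 4 were D1 CS, 4 D1 CC, 4 D1 SC and 2 D1 SS, and 8 were D2 CS, 2 D2 SS, 1 D2 CC and 1 D2 SC. Strain, transgene, age and dose are not given in the sources used here, nor is the way the nuclei of each cell type were collected. With 1 peak list per group there is no replicate error, and no p-value between groups is given. The rule used presence in the lists, so every contrast with other peaks is a description. The intervals given are at 95% confidence by the exact Clopper-Pearson method, and they hold counting error alone.

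MSNs are the GABAergic projection neurons of the striatum, and D1 MSNs carry the dopamine receptor Drd1 and feed the direct pathway. Cocaine blocks the dopamine transporter and so raises dopamine around these cells. A transposase cuts accessible DNA at active promoters and enhancers, so a peak marks a stretch where regulatory proteins can bind, without saying whether the nearby gene is transcribed. Promoters with many CpG dinucleotides are open in most cell types, while distal sites vary more between cell types and states.

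The lists differ in length and in where they hold peaks. They held from 27898 peaks in D2 CS to 77070 in D1 CC, and read totals were not used here. Peaks on unplaced or patch scaffolds numbered 191 in D1 CS, 210 in D1 CC, 101 in D1 SC and 120 in D2 CS, against 39 in D1 SS, 43 in D2 CC, 46 in D2 SC and 52 in D2 SS. The latter 4 lists also lacked every peak over 45 stretches of 104.4 to 2553 kb, 25.8 Mb in all, that each held at least 5 D1 CS peaks. This search was made after the data were seen. The stretches held 445 D1 CS peaks, of which 161 were members (36.2%, interval 31.7 to 40.8), against 5.16% outside them. A high share inside follows from the choice of the stretches, since 4 of the 6 lists that could exclude a peak are empty there. The 161 are 6.11% of the members. Without them the promoter share was 23.4%, the gene body share 40.5% and the median width 242 bp, close to the values given below. If only D1 SC and D2 CS, the lists that resemble D1 CS and D1 CC in scaffold peaks, were used to exclude peaks, 16098 peaks qualified. If only the other 4 lists were used, 3408 did. The 4 lists without peaks over the 45 stretches are those of the groups with 1 or 2 libraries. They come from baseline, acute cocaine and relapse and from both cell types. D1 SC and D1 CC, of the same states as D2 SC and D2 CC, held 13 and 52 peaks in the stretch chr5:131308196-132606077. The cause of the empty stretches was not tested. For the members as a whole, how each list was made and the state of the animals cannot be told apart here.

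Of the members at gene starts, 6 are shown by sequence before their values, as examples of promoters among the members: the oligodendrocyte genes Mag and Mog, and promoters whose peak covers the whole RefSeq window. Zbtb8b is among the 10 strongest promoter members, and Creb5, Slc25a20 and Rgs12 were chosen after their values were seen. Each line gives the 250 bases before the RefSeq start (GRCm38.p6, the mm10 build), 5′ to 3′ on the strand of the gene, with CpG dinucleotides in capitals. Mag lies at chr7:30914923-30915172 on the minus strand, Mog at chr17:37023399-37023648 (minus) and Creb5 at chr6:53573124-53573373 (plus). Zbtb8b lies at chr4:129440819-129441068 (minus), Slc25a20 at chr9:108661886-108662135 (plus) and Rgs12 at chr5:34949198-34949447 (plus).
Mag promoter: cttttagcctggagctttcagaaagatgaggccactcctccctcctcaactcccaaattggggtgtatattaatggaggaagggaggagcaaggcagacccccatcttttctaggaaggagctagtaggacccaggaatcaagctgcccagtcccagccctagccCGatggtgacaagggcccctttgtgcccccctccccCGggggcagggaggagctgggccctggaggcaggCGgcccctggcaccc
Mog promoter: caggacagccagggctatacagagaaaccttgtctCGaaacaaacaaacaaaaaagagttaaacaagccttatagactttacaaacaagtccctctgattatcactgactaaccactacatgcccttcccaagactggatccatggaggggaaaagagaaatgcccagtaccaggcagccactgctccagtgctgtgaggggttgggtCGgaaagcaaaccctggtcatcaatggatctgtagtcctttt
Creb5 promoter: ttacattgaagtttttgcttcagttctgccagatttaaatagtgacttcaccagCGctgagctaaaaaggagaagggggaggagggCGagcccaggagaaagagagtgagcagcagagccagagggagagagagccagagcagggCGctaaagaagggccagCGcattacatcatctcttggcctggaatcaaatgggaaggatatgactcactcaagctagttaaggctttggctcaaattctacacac
Zbtb8b promoter: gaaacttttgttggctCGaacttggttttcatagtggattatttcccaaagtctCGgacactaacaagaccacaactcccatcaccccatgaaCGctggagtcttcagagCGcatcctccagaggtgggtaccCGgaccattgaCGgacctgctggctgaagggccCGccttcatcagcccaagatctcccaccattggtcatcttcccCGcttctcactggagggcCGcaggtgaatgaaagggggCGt
Slc25a20 promoter: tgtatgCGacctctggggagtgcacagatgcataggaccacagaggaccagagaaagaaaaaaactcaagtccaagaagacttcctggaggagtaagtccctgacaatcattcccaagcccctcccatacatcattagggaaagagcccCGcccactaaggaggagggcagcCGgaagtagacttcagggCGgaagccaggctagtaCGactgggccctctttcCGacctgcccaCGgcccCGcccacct
Rgs12 promoter: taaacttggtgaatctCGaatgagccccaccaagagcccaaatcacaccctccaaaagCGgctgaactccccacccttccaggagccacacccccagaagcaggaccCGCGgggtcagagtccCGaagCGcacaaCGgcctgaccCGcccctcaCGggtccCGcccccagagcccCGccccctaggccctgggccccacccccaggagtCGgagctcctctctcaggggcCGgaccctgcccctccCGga

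Mag, myelin-associated glycoprotein, and Mog, myelin oligodendrocyte glycoprotein, had 3 and 2 CpG in these bases and 61.2% and 46.8% GC. Creb5, a transcription factor of the CREB and ATF family, had 4 CpG and 1 match to the AP-1 letters TGANTCA. The zinc-finger gene Zbtb8b had 10 CpG. Slc25a20, the mitochondrial carnitine carrier, had 8 CpG and 3 matches to the GC box GGGCGG, counting both strands. Rgs12, a regulator of G-protein signalling, had 14 CpG, 68.4% GC and also 3 GC boxes. The peak covered all 250 bases at Mog, Creb5, Zbtb8b, Slc25a20 and Rgs12. One of the Mag peaks covered 194 of them.

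Most members lay away from gene starts. By the authors' classes, 1048 members (39.8%, interval 37.9 to 41.6) were in gene bodies, 727 (27.6%, 25.9 to 29.3) were intergenic, 637 (24.2%, 22.5 to 25.9) lay within 1 kb of a transcription start and 224 (8.50%) between 1 and 3 kb. D1 CS peaks that were found in D1 CC and in at least 1 other list, 42685 in number and called shared below, had 35.7% at promoters within 1 kb and 33.0% in gene bodies. The promoter share of the members thus lay between that of the shared peaks and the 12.6% of the 12819 D1 CC peaks found in no other list. The 1845 D1 CS peaks found in no other list had 21.0%. Members within 1 kb of a start were spread over both sides, with 290 of 637 upstream. Gene-body members lay closer to a start than shared gene-body peaks, with a median of 27940 bp against 38070 bp. The median was 25070 bp in D1 CS peaks in no other list and 35060 bp in D1 CC peaks in no other list. The shorter distance was thus not particular to the members. Intergenic members lay a median of 21080 bp from the nearest protein-coding gene, 233 of them within 10 kb and 113 beyond 100 kb. By the type of the assigned gene, 1582 members (60.0%) were at protein-coding genes, 114 at lincRNA genes and 15 at miRNA genes.

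Members were narrow and weak peaks. Their median width was 244 bp (quartiles 212 and 338, highest 865), against 558 bp for shared peaks, 242 bp for D1 CC peaks in no other list and 225 bp for D1 CS peaks in no other list. Exactly 200 bp, the smallest width in the lists, was the width of 348 members (13.2%), against 4.24% of shared peaks. Fold enrichment is the authors' ratio of a peak over its background and is not scaled between lists, so it was ranked within D1 CS. The median fold of the members was 3.78 (lowest 2.00, highest 7.68), and their median rank was the percentile 22.5, against 55.2 for shared peaks. In all, 2346 members (89.0%) were below the median fold of D1 CS, and 0 were in its top 10%. The authors' q-value reached 0.0453 at most. It was at most 0.001 in 2399 members, at most 1e-05 in 1366 and at most 1e-10 in 120. Intergenic members had a median rank of 27.6, gene-body members 22.5 and members within 250 bp of a start 19.5.

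A D1 CS peak found in D1 CC can be in 0 to 6 of the other lists, and the members are the 0 class. Median width was larger toward the far end of this scale, with 244 bp in the members and 248, 261, 259, 312, 550 and 727 bp in peaks found in 1 to 6 other lists. The median fold rank went from 22.5 to 80.4 in the same order. The promoter share did not follow one direction. It was 24.2% in the members, 23.4% in the 2322 peaks with 1 other list, 25.5% with 2, 16.9% with 3, 18.8% with 4, 28.4% with 5 and 56.1% in the 17278 peaks found in all 6. The members therefore resembled most the peaks with 1 other list. Of those 2322 peaks, the other list was D2 CC for 963, D2 SS for 630, D2 SC for 264, D2 CS for 227, D1 SC for 218 and D1 SS for 20. D2 CC and D2 SS, the longest of these lists, were thus most often the only list that kept a peak out of the members. The counts did not follow length alone. D1 SS, with 28568 peaks, had the lowest count, though D1 SC and D2 CS are about as long, with 28310 and 27898. D2 CC held 88.7% of the D1 CS peaks found in D1 CC, D2 SS 86.9% and D2 SC 83.4%, while D1 SC held 56.2%, D1 SS 55.4% and D2 CS 53.3%.

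**Figure D1:**
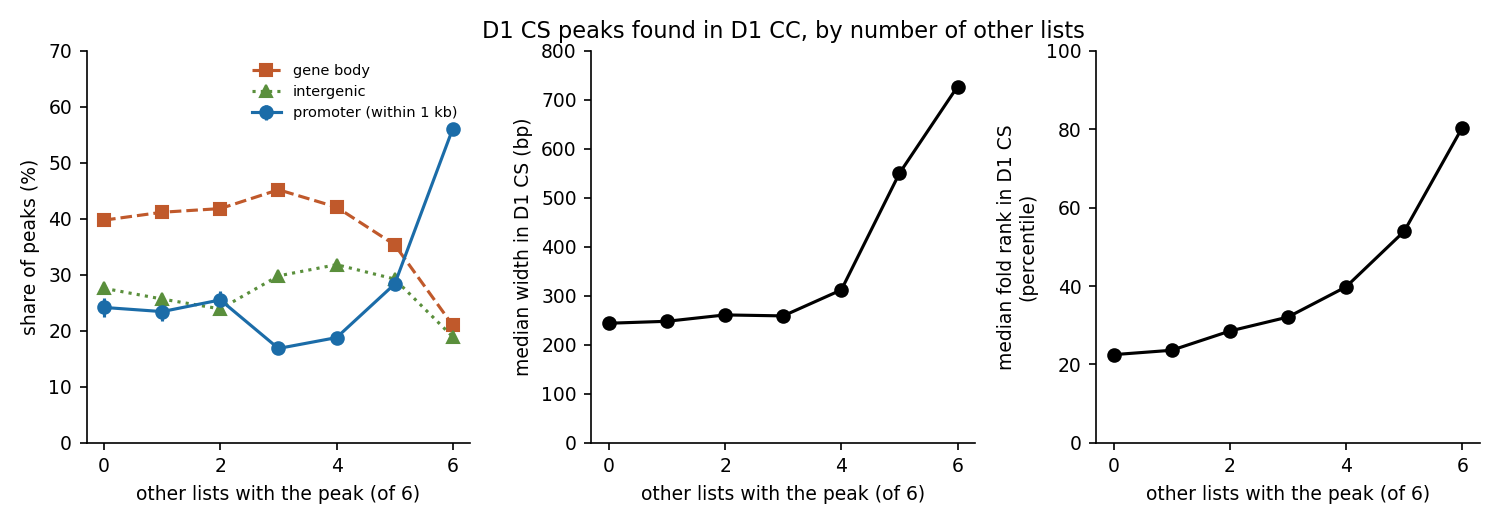
Share of each region class (left, %), median width (middle, bp) and median fold rank within D1 CS (right, percentile) of D1 CS peaks found in D1 CC, by the number of the 6 other lists that hold the peak; the members are at 0 and bars on the promoter points are exact 95% intervals. Width and rank were lowest in the members, at 244 bp and 22.5, and highest in peaks found in all 6, at 727 bp and 80.4, while the promoter share was lowest at 3 other lists, at 16.9%.

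Peak strength and the region classes were also compared at like fold. When D1 CS was divided into 5 equal bins by fold, members were 12.3% of the weakest bin, 8.56%, 4.92% and 1.27% of the next 3, and 4 peaks in the strongest. Within the weakest bin, 28.1% of the 1194 members and 28.6% of the other peaks were at promoters. In the next 3 bins these shares were 20.6% and 20.0%, 18.8% and 22.8%, and 31.7% and 35.2%. In the strongest bin 1 of the 4 members and 64.1% of the others were at promoters. In the 2 weakest bins the promoter shares of members and other D1 CS peaks thus differed by less than their counting error. In the 2 weakest bins, which hold most members, the widths were close, with medians of 239 bp in members and 250 bp in the others and of 241 bp and 271 bp. In the middle bin the median was 247 bp in members and 471 bp in the others, and in the bin above it 291.5 bp and 620 bp.

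The D1 CC peaks that matched the members are described within their own list. The members touched 2564 D1 CC peaks, and 72 of these were touched by at least 2 members, as at Mag. The median width of the matching D1 CC peak was 454 bp and its median fold rank within D1 CC 34.5, and 67.9% were below the median fold of D1 CC. Of the members, 994 (37.7%) lay entirely inside the D1 CC peak and 645 were wider than it. Over the members, the fold values in D1 CS and D1 CC had a Spearman correlation of 0.48. This is across peaks, which are not independent replicates. For 279 members (10.6%) the D1 CC peak, which reaches past the D1 CS peak, did overlap a peak of another list. The nearest peak of any other list was a median of 8216 bp away, and within 1 kb for 547 members (20.8%).

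The rule has a sharp edge of 1 bp. Just inside it, the members at Fgf22 (chr10:79754796-79755034), a fibroblast growth factor that acts in synapse formation, and Megf11 (chr9:64386014-64386213) shared 1 bp with a D1 CC peak, and that at Gm12148 shared 2 bp. Just outside, D1 CS peaks at Zfp516, Gm15338 and Hapln4 were left out because they shared 1 bp with D2 SS, D2 CC and D2 SC. The members at Gm13523 and near Smad3 lay 1 bp, and that at Plec 2 bp, from a peak of another list.

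Of the 10 strongest members, 2 were at promoters by the authors' class. The member with the highest fold lay in the body of 6330411D24Rik, a gene of the class misc, at chr4:142756284-142756849, with a fold of 7.68 at percentile 89.4 of D1 CS. Its D1 CC peak had percentile 70.4, and the nearest peak of another list was 68.3 kb away. Next came an intergenic member 9.51 kb from Nkain1, which encodes a protein that binds a sodium pump subunit, at chr4:130520056-130520622, with a fold of 6.89. The third was a promoter member of the zinc-finger gene Zfp969 at chr2:175703787-175704075, 285 bp upstream of the start, with a fold of 6.67. An intergenic member 15.3 kb from Spg20, the spartin gene, had the same fold, and its nearest peak in another list was 9.25 kb away. Intergenic members near Galnt14, Lrp5, a Wnt co-receptor, Gm2004 and Tex36 and one in the body of Gm45062 all had a fold of 6.45. The tenth, at Gm13034, had 6.37. Of these 10, 4 lay in the stretches that 4 lists left empty: the members at Zfp969 and Gm13034 and those near Nkain1 and Gm2004. Of these 4, the member at Gm13034 lay 10 bp from a peak of another list and the rest between 72.5 and 142.3 kb. Of the other 6, the member near Galnt14 lay 112 bp from a peak of another list and the rest between 9.25 and 68.3 kb.

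Among promoter members, Zfp969 and Gm13034 were followed by Gm14296 (fold 6.23), the lincRNA gene 1700066J03Rik (6.005) and Zbtb8b (5.97, chr4:129440645-129441189). Ttc25, which encodes a protein of motile cilia, had a fold of 5.93, 4930481A15Rik 5.89, Zfp966 5.78, Gm15764 5.76 and Gm13174 5.71. Gm13034, Gm15764, Ttc25 and 4930481A15Rik lay 10, 63, 121 and 228 bp from a peak of another list. The rest of the 10 lay between 3.57 and 218.9 kb from one. The D1 CC peak at Gm14296 was at percentile 96.6 and that at Zbtb8b at 90.7 of D1 CC. Ranks from lists of different length show no change between states. Zfp969, Gm14296 and Zfp966 belong to a cluster of near-identical zinc-finger genes on chromosome 2, where reads cannot always be placed on 1 copy, so these are uncertain. The member near Gm2004 lies between Zfp966 and Gm14296 and is uncertain too. Zfp969, Gm13034, Zfp966 and Gm15764 lay in the empty stretches. Of all promoter members, 15 of 637 (2.36%) had a symbol starting with Zfp, against 2.59% of shared promoter peaks. Promoter members outside these 10, chosen after their values were seen, included Htr3a, the serotonin-gated ion channel subunit, with a fold of 5.56, Creb5 with 5.56, Prodh, proline dehydrogenase, with 5.56 (in an empty stretch of chromosome 16), Scd1, a stearoyl-CoA desaturase, with 5.48, Slc25a20 with 5.46 and Rgs12 with 5.11.

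Members were spread thinly over genes. They were assigned to 1596 gene symbols, of which 1362 had 1 member, 179 had 2 and 55 had at least 3. Of 13219 protein-coding genes with a D1 CS peak, 1293 had a member, or 9.78%. Auts2, a gene linked to neurodevelopmental disorders whose protein acts in transcription and in neuronal morphology, had most: 12 of the 31 D1 CS peaks assigned to it. Its RefSeq body spans chr5:131437333-132543220 on the minus strand. Over this body, peaks numbered 36 in D1 CS, 49 in D1 CC, 13 in D1 SC, 13 in D2 CS and 0 in D1 SS, D2 CC, D2 SC and D2 SS. The 4 lists at 0 are those that lacked peaks over whole stretches, and the stretch chr5:131308196-132606077 around Auts2 held most D1 CS peaks of the 45, with 37, 17 of them members. The 16 members over the body, 12 of them assigned to Auts2, were 205 to 679 bp wide, with fold ranks from 0.781 to 63.5. The strongest lay at chr5:131717322-131717873 (fold 5.34).

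**Figure D2:**
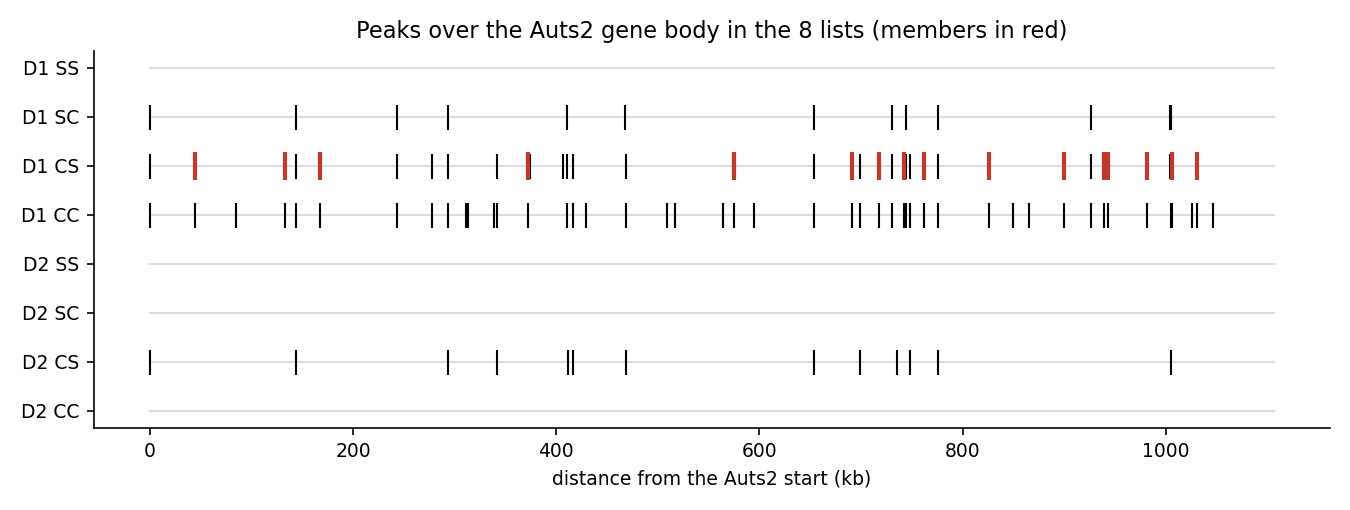
Positions of peaks (ticks) over the Auts2 gene body in the 8 lists, as distance from the start of the gene in kb, with members in red in the D1 CS row. The 16 members are spread over the body among the 36 D1 CS peaks, and the rows of D1 SS, D2 CC, D2 SC and D2 SS hold 0 peaks.

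After Auts2, 9 genes had most members by the same count. Gm20388, a gene model spanning several neighbouring genes, had 7 of 41, and Gse1, a component of histone deacetylase complexes, had 5 of 23. Asic2 (acid-sensing ion channel, 4 of 27), Camta1 (calmodulin-binding transcription activator, 4 of 23), Ctif (translation initiation, 4 of 15), Mad1l1 (spindle checkpoint, 4 of 10), Park2 (parkin, a ubiquitin ligase, 4 of 24), Ppm1e (protein phosphatase, 4 of 6) and Cfap46 (cilia, 4 of 5) followed. Their members were mostly in gene bodies; Cfap46 had 3 of 4 within 1 kb of a start, and all 4 lay in the empty stretch chr7:139545591-139684844. At Asic2 the fold ranged from 3.34 to 6.005, the highest being at chr11:81722346-81722577. Ppm1e had 6 peaks in D1 CS, 10 in D1 CC, 1 in D1 SC, 0 in D1 SS, 2 in D2 SS and D2 SC and 1 in D2 CS and D2 CC. Of the 4 lists that lacked peaks at Auts2, only D1 SS was thus empty at Ppm1e. Of 404 genes with at least 10 D1 CS peaks, 237 had no member. The highest shares among them were those of Mad1l1 (4 of 10) and Auts2 (38.7%). Of the members, 509 (19.3%) were within 20 kb of another member, a share that was not compared with other peaks. The largest group, 4 members at chr9:107645515-107676514, included starts of Gnat1, a rod transducin subunit, and Slc38a3, a glutamine transporter.

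Other stretches left empty by the same 4 lists also held members, and some of them are described here. On chr17:34187833-34310007, 8 of 9 D1 CS peaks were members, at Tap1 and Psmb8, which process and transport peptide antigens, and at the major histocompatibility class II genes H2-Ab1 and H2-Eb1. Here D1 SC and D2 CS also had 0 peaks and D1 CC had 8. The H2-Ab1 member had a fold of 4.46 and lay 30 bp from the start. H2-Ab1 and H2-Eb1 belong to a strain-variable gene family, and the strain is not given, so the members there are uncertain. On chr12:109068495-109699850, 9 of 14 D1 CS peaks were members, at Mir341, Gm23912 and Gm27300, in a stretch where D1 SC and D2 CS had 3 peaks each. On chr7:138909997-139388502, 8 of 23 were, with Stk32c, a protein kinase gene, among their genes. On chr4:41774483-42860482, 9 of 15 D1 CS peaks were members, at Gm13299, Gm21586 and other gene models. On chr14:3208766-4334454, 6 of 8 were, at Gm2956, Gm2974 and others. On chr14:69238594-69697032, 7 of 16 were, with Entpd4 and Entpd4b among their genes. Whether reads in these stretches can be placed on 1 copy was not tested.

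The share of members differed between chromosomes by more than its counting error. Chromosome 7 had most, with 283 of 2379 D1 CS peaks (11.9%, interval 10.6 to 13.3), followed by chromosome 17 with 8.55%, 9 with 7.26%, 11 with 7.13% and 19 with 7.02%. Chromosome 18 had 41 of 1815 (2.26%), chromosome 3 2.43% and X 2.59%. Chromosome 7 stayed high outside the empty stretches, at 11.2%. In the weakest bin by fold, members were 23.9% of D1 CS peaks on chromosome 7 and 7.16% on chromosome 18, so the gap was there at like fold. The other lists differed in the same way. Of D1 CS peaks found in D1 CC, D2 CC held 78.1% on chromosome 7 and 94.8% on chromosome 18, D2 SS 74.7% and 93.3%, D2 SC 71.5% and 91.3%, and D1 SS 42.0% and 62.4%. D1 SC held 55.2% and 56.7%, and D2 CS 51.5% and 53.9%, nearly alike on both. Over 20 chromosomes, the share of members went with the number of protein-coding genes per Mb (Pearson 0.851, Spearman 0.83). D1 CS peaks in no other list did likewise (Pearson 0.794, Spearman 0.851). That is a description of chromosomes that come from the same libraries. Its part in the results by gene was not tested.

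**Figure D3:**
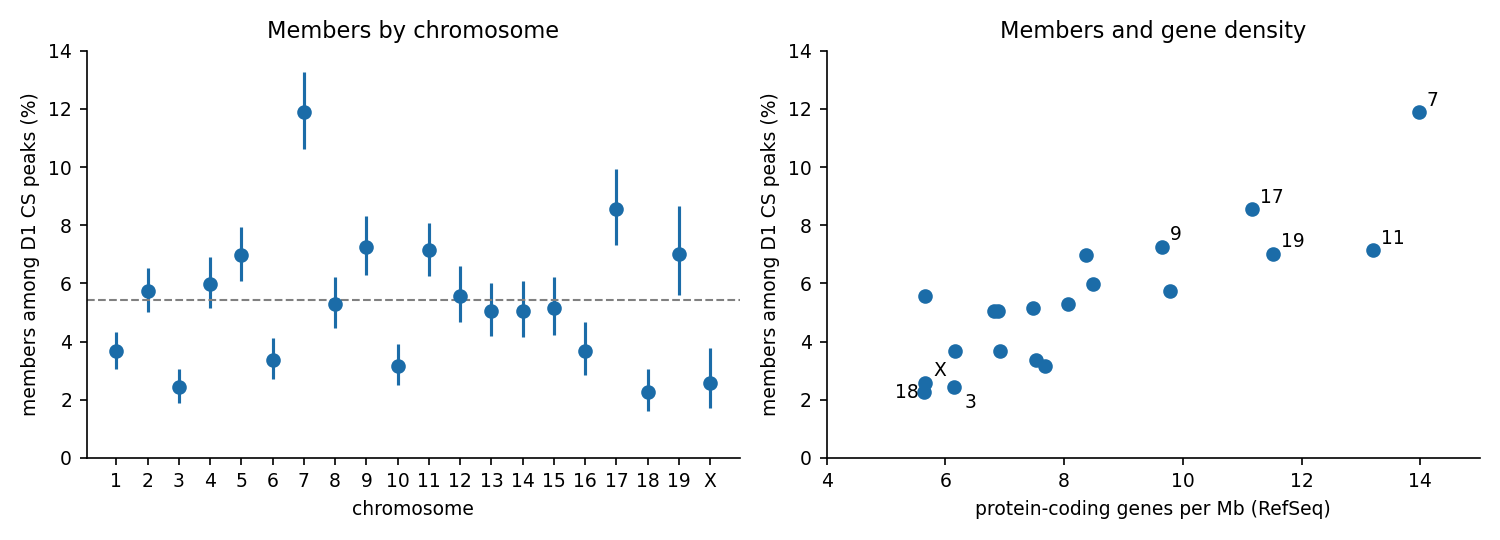
Members as a share of D1 CS peaks (%) on each chromosome (left, bars are exact 95% intervals, the dashed line is 5.44% over all) and against protein-coding genes per Mb (right). Chromosome 7 stands highest at 11.9% and chromosome 18 lowest at 2.26%.

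Genes that define the cell types were compared with the background of 5.44% of D1 CS peaks and 9.78% of genes. Of 10 D1 MSN genes, 3 of the 9 with a D1 CS peak had a member, 3 of 29 peaks (10.3%, interval 2.19 to 27.3). They were Isl1, a LIM homeobox factor of striatonigral neurons (chr13:116297330-116297720, fold 3.83), Ebf1, a transcription factor of the same neurons (chr11:44682225-44682444, fold 4.45), and Sfxn1, a mitochondrial serine transporter (chr13:54078864-54079067, fold 2.77). All 3 were in gene bodies by the authors' class, and that of Isl1 lay 550 bp outside the RefSeq body. Isl1 had 2 peaks in D1 CS, 3 in D1 CC, 2 in D2 CC and 1 in each of the other 5 lists, so 1 of its 2 D1 CS peaks was a member. Drd1 itself had a peak in all 8 lists and no member, nor had Pdyn or Tac1, the neuropeptide genes of D1 MSNs. Of the D2 MSN genes, among them Drd2, Adora2a and Penk, 0 of 20 peaks were members (interval up to 16.8%).

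Genes shared by both kinds of MSN had 7 members of 103 peaks (6.80%). One was at the start of Ppp1r1b, which encodes DARPP-32, the phosphatase inhibitor that relays dopamine signals (chr11:98354238-98354496, 229 bp upstream, fold 2.34 at percentile 0.100). Others were in the bodies of Bcl11b, a transcription factor of MSN differentiation (fold 3.52), Pde10a, a striatal phosphodiesterase (3.88 and 3.30), and Adcy5, the main striatal adenylyl cyclase (2.47, 2.61 and 3.03). Of these, Ppp1r1b and Adcy5 members were among the weakest peaks of D1 CS, all at or below percentile 3.48. By the authors' assignment, rapid immediate-early genes had 0 members of 26 peaks (interval up to 13.2%). With the RefSeq body plus 5 kb on both sides, 2 of 16 such genes had a member (12.5%). This is near the 11.0% over all protein-coding genes by the same bounds. The 2 genes were Fosb (chr7:19301007-19301222, fold 4.41) and Nr4a1 (chr15:101261297-101261538, fold 3.22). The authors assigned these members to Gm26802 and to no gene. By the authors' assignment, delayed activity-regulated genes had 0 of 34 (up to 10.3%).

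Lists of synaptic and signalling genes had smaller shares of peaks than the 5.44% over all D1 CS peaks, and only the interval of synaptic adhesion lay wholly under it. Counted by genes they were above the 9.78% over all protein-coding genes, with a member at 6 of 20 synaptic adhesion genes, 5 of 19 glutamate receptor genes, 3 of 18 dopamine and cAMP genes, 3 of 21 ion channel genes and 3 of 22 axon guidance genes. Many genes of these lists carry a large number of D1 CS peaks. Synaptic adhesion genes had 8 members of 332 peaks (2.41%, interval 1.05 to 4.69), at Tenm4, Opcml, Lsamp, Tenm2, Dscam and Ptprt. Ion channel genes had 7 of 256 (2.73%, 1.11 to 5.55), among them 3 at Cacna1d, an L-type calcium channel gene, 2 at Cacna1a and 2 at Cacna2d3. Glutamate receptor genes had 6 of 174 (3.45%), including 1 in Grm5 (fold 3.78). Another lay at the start of Grin2a, an NMDA receptor subunit (27 bp, fold 2.60). It lay in a D1 CC peak of 2481 bp, 148 bp from a peak of another list, at percentile 0.513 of D1 CS. Dopamine and cAMP signalling genes had 4 of 146 (2.74%), including the start of Rap1gap (fold 2.51) and 2 in Adcy2 (3.56 each). The Rap1gap member was at percentile 0.30 of D1 CS and 778 bp from a peak of another list. Axon guidance genes had 4 of 156 (2.56%), at Plxna4, Slit1 and Unc5c.

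Regulators linked to cocaine responses had 8 of 79 (10.1%, interval 4.47 to 18.98). The members were at Ehmt1, a histone H3 lysine methyltransferase (fold 5.56, chr2:24905601-24905847), Hdac4, a class IIa histone deacetylase (3.98, 374 bp upstream of the start), the histone demethylase Kdm6b (2.28 and 2.67), the retinoic acid receptor Rara (3.46, 141 bp past the start, and 3.30), its partner Rxra (3.47) and Brwd1 (3.79), a bromodomain protein. At Rara, peaks numbered 4 in D1 CS, 7 in D1 CC, 1 in D1 SC, 0 in D1 SS, 2 in D2 CC, 3 in D2 SS and 0 in D2 SC and D2 CS. The interval of this list includes 5.44%, and 17 lists were looked at.

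**Figure D4:**
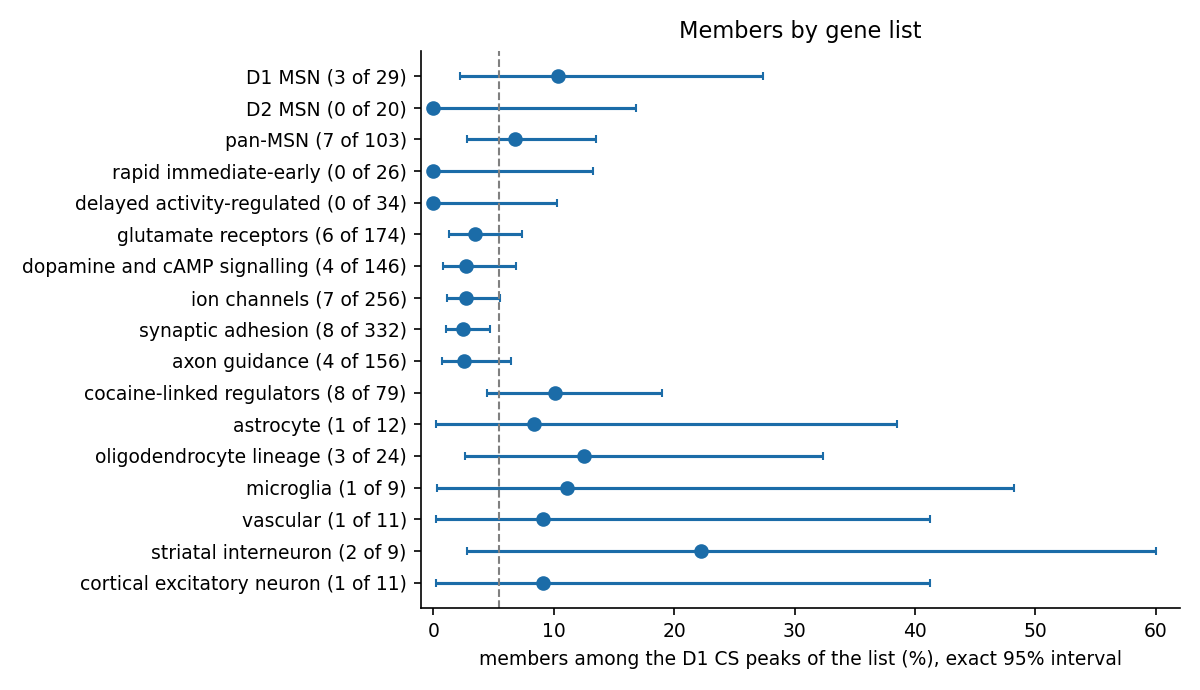
Members as a share of the D1 CS peaks assigned to each of 17 gene lists (%), with exact 95% intervals and the counts in brackets; the dashed line is 5.44%, the share over all D1 CS peaks. All intervals reach 5.44% except that of synaptic adhesion, which lies below it at 1.05 to 4.69.

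Markers of other cells that the nuclei could include were looked up in the members. By the authors' assignment, 45 astrocyte, oligodendrocyte, microglia and vascular markers had 56 D1 CS peaks, 6 of them members (10.7%, interval 4.04 to 21.9). This is above the 5.44% over all D1 CS peaks, which the interval includes. By genes, 5 of the 26 markers with a D1 CS peak had a member, against 9.78% of protein-coding genes. Markers with a peak numbered 26 in D1 CS and 32 in D1 CC, 13 in D1 SC and 11 in D1 SS, and 23 in D2 CC, 22 in D2 SS, 16 in D2 SC, 15 in D2 CS. The bp under their peaks were 22031, 35897, 10003, 9445, 25819, 23750, 20154 and 9481 in the same order. D1 CS thus had a peak at more markers than D2 CC, D2 SS and D2 SC, which are longer lists, but over fewer bp than D2 CC and D2 SS. The members were 2 at Mag (chr7:30914712-30914914 and chr7:30914979-30915184, folds 4.14 and 3.92), 1 at Mog (chr17:37023272-37023666, 3.56), and 1 each in the authors' bodies of Aldh1l1, an astrocyte enzyme (4.43), Cx3cr1, the microglial fractalkine receptor (3.32), and Pecam1, an endothelial adhesion molecule (4.86). The Pecam1 and Aldh1l1 members lay 13 and 93 bp from a peak of another list, and those at Mog, Cx3cr1 and Mag 4.81 to 41.0 kb. Mag and Mog had 0 peaks in each of the 6 other lists. All D1 CS peaks assigned to these genes were members, so the rule already bars peaks of those lists at these sites. No D1 CS peak was assigned to Aqp4, Slc1a3 or Aldoc of astrocytes, to Olig2, Sox10 or Mobp of oligodendrocytes, or to Csf1r, Tmem119, Aif1 or Itgam of microglia.

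The count for oligodendrocytes depended on how peaks were given to genes. With the RefSeq body plus 5 kb on both sides, 5 of 12 oligodendrocyte genes with a D1 CS peak had a member (41.7%): Mag, Mog, Mobp, Cnp and Sox10, against 2 of 9 by the authors' assignment. Over all protein-coding genes this share was 11.0% (1684 of 15350). With these bounds, genes shared by both kinds of MSN also had 5 of 12 (41.7%). Glutamate receptor genes had 6 of 19, D1 MSN genes 3 of 10 and D2 MSN genes 0 of 9. The share of 41.7% was thus not particular to oligodendrocyte genes. The members near Mobp, a myelin protein gene (chr9:120184420-120184665, fold 4.03), Cnp, a myelin enzyme gene (chr11:100570734-100570953, 3.27), and Sox10, the master regulator of the lineage (chr15:79151750-79151954, 2.90), were assigned by the authors to AC110091.2, Ttc25 and Polr2f. Mag, Mog, Mobp and Sox10 had 0 peaks in each of the 6 other lists within these bounds, while Cnp had 1 or 2 in all of them. All D1 CS peaks of Mag, Mog, Mobp and Sox10 within these bounds were members. The rule thus sets the absence of other lists at those sites, and their zeros are in part a result of it. Some other genes of the lineage had no member: Mbp had 17 peaks in D1 CS, 19 in D1 CC and 6 to 15 in each of the other lists, and Opalin had 1 in each list but D1 SS, which had 0. By the same bounds, microglia had 1 of 6 genes (Aif1), and astrocytes 0 of 9 and vascular cells 0 of 5, since the members given to Aldh1l1, Cx3cr1 and Pecam1 lie outside the RefSeq bodies. The part of other cells in the members was not tested, and a peak list cannot tell more cells of a type from more open chromatin per cell.

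Interneuron markers had 2 members of 9 peaks (22.2%, interval 2.81 to 60.0, which includes the 5.44% over all D1 CS peaks). They were at the start of Lhx6, a homeobox gene of medial ganglionic eminence interneurons (19 bp, fold 3.28), and at Th, tyrosine hydroxylase (4.11). The member at Th lies 19.1 kb outside the RefSeq body. With RefSeq bounds, 1 of 6 interneuron genes had a member, against 11.0% of all protein-coding genes. Lhx6 had a peak in D1 CS and D1 CC and in none of the other lists. Its only D1 CS peak was the member, so the rule sets the absence of other lists at that site. Cortical excitatory neuron markers had 1 of 11 (9.09%, interval 0.230 to 41.3, which also includes 5.44%), at Cux2 (3.94).

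Promoter sequence was available as RefSeq windows of 300 bases, from 250 before to 50 after a start. Of 32619 windows, 231 overlapped a member, and 210 of these held no shared peak. In the 210, the median GC content was 58.3% and the median number of CpG 13. Windows with a shared peak had 62.7% and 23, windows with a D1 CC peak in no other list 55.3% and 9, and windows with no peak 47.7% and 3. The 113 windows with a D1 CS peak in no other list had 63.3% and 18. In CpG the member windows thus lay between those of D1 CS peaks, shared or in no other list, and those with a D1 CC peak in no other list. The GC box GGGCGG was in 105 of the 210 member windows (interval 43.0 to 57.0%), in 68.3% of shared windows, in 44.5% of those with a D1 CC peak in no other list and in 35.9% of all windows. The SOX letters ACAANG were in 38.1% of member windows, 30.2% of shared windows and 41.0% of all windows. The nuclear receptor motif AGGTCA was in 15.7% of member windows, 10.0% of shared windows and 16.2% of all windows, and the NFI motif TTGGCA in 14.3%, 9.99% and 14.1%. For both, member windows were near the share of all windows. The AP-1 letters TGANTCA were in 7.14% of member windows (interval 4.05 to 11.5), 4.10% of shared windows and 7.84% of all windows. TATAAA was in 5.24%, 5.66% and 13.7% of these. Each motif was searched on both strands, and overlaps between motifs were allowed. A match is a description of the window, and windows with more GC hold fewer A and T letters.

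**Figure D5:**
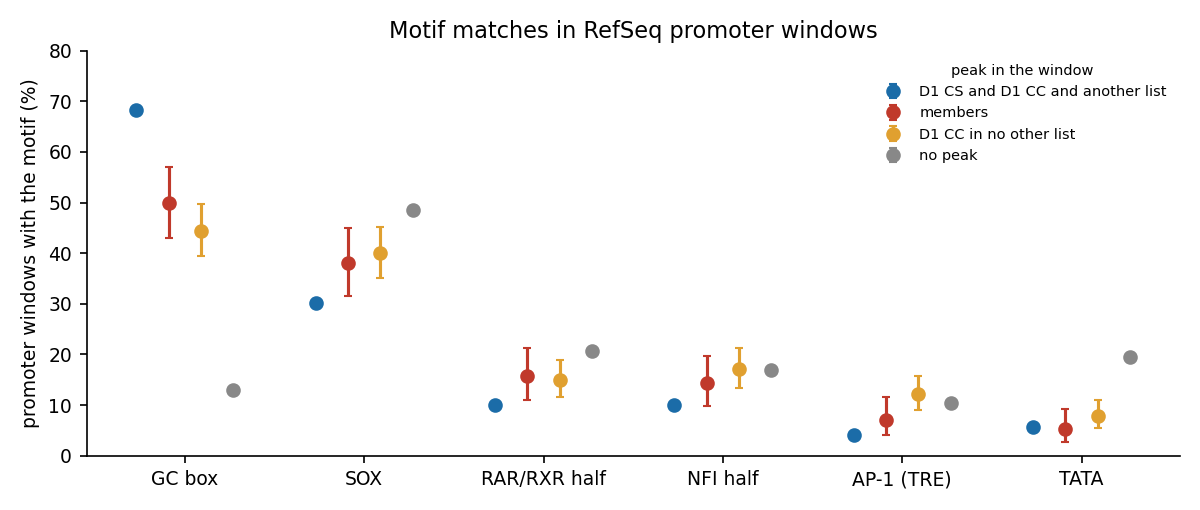
Share of 300-base RefSeq promoter windows that hold each motif (%), for windows with a shared peak, with a member, with a D1 CC peak in no other list and with no peak; bars are exact 95% intervals. For the GC box the member windows, 105 of 210, lie between shared windows at 68.3% and windows with no peak at 12.9%.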

How the data were processed

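The data are 8 peak lists from ATAC-seq, 1 per group. Per the submitters' processing notes, cutadapt, HISAT, SAMtools and MACS2 were used, without versions, and the build was mm10. Pooling of libraries is not given in the sources used here. For each peak the authors deposited a fold enrichment, a ratio over background, and a q-value on a linear scale, with a region class, a gene and the distance from the middle of the peak to the start of that gene. No column was per library (0 not used), so depth per library is unknown and the length of a list limits what it can exclude.

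Peaks on chromosomes 1 to 19 and X were compared by an overlap of at least 1 bp. Fold was ranked as a percentile within a list. The members and the 17 gene lists (250 genes, all in RefSeq) were chosen with earlier results of these data known. Named genes are the 10 members and 10 promoter members with the highest fold, the 10 genes with most members (ties by symbol), members at marker genes, up to 4 genes of each other list, and those nearest the edge of the rule. Promoter windows came from RefSeq (GRCm38.p6). Alternatives were another overlap, a margin of 1 kb, a q of at most 1e-05, lists of equal length, autosomes only, leaving out each excluded list, D1 CC as the base and RefSeq gene bounds. Overlaps were tested on simulated data. The tools were pandas 2.3.3, numpy 2.4.6, matplotlib 3.10.9 and scipy 1.17.1 under Python 3.11.15. One gene is not reported here by name.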

Additional observations from a re-analysis of the deposited data

Results flagged for a closer look

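Outside the chromosomes used above, 217 D1 CS peaks lay on Y or on unplaced and patch scaffolds. Of these, 34 were found in D1 CC and in none of the 6 other lists, or 15.7%, against 5.44% on chromosomes 1 to 19 and X. These peaks are not among the members described above. D1 SS, D2 CC, D2 SC and D2 SS hold few scaffold peaks, and a list with few peaks there excludes few, so the 2 shares are not alike in what they count. All 34 were on scaffolds and 0 on Y. D1 SS had 50 peaks on such sequences.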

How the results depend on the processing

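Of 97 values recomputed under other settings, 71 stayed within the limits set for them (a count within 1.5 times, a share or median within its interval) and 26 moved. A reciprocal overlap of 50% left 1379 members, with a median width of 261 bp and a median rank of 24.8. With no other peak within 1 kb, the promoter share was 21.1%, the gene body share 41.8%, the width 252 bp and the rank 23.8. A q of at most 1e-05 left 1366 members at a rank of 36.9, and lists of equal length left 584, with a promoter share of 22.1% and a width of 291 bp. D1 CC peaks in place of D1 CS peaks had a width of 345 bp and a rank of 31.8. Without members whose D1 CC peak overlaps another list, the width was 249 bp.

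Leaving out 1 excluded list gave 2656 (D1 SS) to 3599 (D2 CC) members, promoter shares of 22.8 to 26.3% (26.3% without D2 CS), gene body shares of 38.6 to 41.1%, intergenic shares of 26.9 to 27.9%, widths of 243 to 246 bp and a rank of 22.5. Excluding by D1 SC and D2 CS alone, chosen after seeing the data, gave 16098 peaks with a promoter share of 15.2%, a gene body share of 45.2%, an intergenic share of 31.0%, a width of 253 bp and a rank of 29.9. Excluding by D1 SS, D2 CC, D2 SC and D2 SS alone gave 3408 peaks with 29.9% at promoters, 36.3% in gene bodies, a width of 256 bp and a rank of 26.1. The cause of these moves was not tested, except that stricter settings keep fewer peaks.

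RefSeq bounds gave 45 genes of the lists with a member, against 41. A search of motifs over whole peaks and leaving out libraries were not run. No paired analysis was possible because each group has 1 list and no column per library. Absence from a list means only that no peak was called there, and depth per library is unknown. It did not follow list length alone. D2 CC and D2 SS had 0 peaks over the Auts2 body, where the shorter D1 SC and D2 CS had 13 each.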
